A study of Homo sapiens with 9 samples.

Results

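Interferon-stimulated genes are the genes that a cell switches on when interferon binds its surface receptors. Type I interferons and interferon lambda act through the kinases JAK1 and TYK2 and a complex that includes STAT2 and IRF9, which binds the interferon-stimulated response element in the promoters of these genes. Interferon gamma acts mainly through another site, the gamma-activated site. The products include proteins that block viral RNA and its translation, sensors of foreign RNA, the ubiquitin-like modifier ISG15, and parts of the signalling chain itself, and epithelial cells of the gut hold a low level of many of them without added interferon.

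A list of 51 such genes, drawn up with earlier results of these data known but with no measured value in its rule, was taken by gene symbol, and 50 of them were among the 31558 genes of the count table. The expression of IFI44L is not analysed here. The RNA came from HCT116, a human colorectal carcinoma cell line, in 3 groups of 3 biological replicates with no interferon or virus named among the treatments. CRLM1-OE cells overexpressed CRLM1, a long noncoding RNA (LINC01767) cloned as cDNA into the pTSB vector, Anti cells carried the antisense control and Ctrl cells the empty control plasmid. All of them are vector-carrying cells, the methods of the study give a lentiviral vector with GFP and puromycin resistance for stable expression while also speaking of transfected cells, and untreated HCT116 cells are not among the samples. Whether the replicates of a group stem from 1 transduction or transfection is not stated. The p-values weigh group differences against the spread between these samples, which may be partly technical. If the replicates do stem from 1, that spread leaves out variation between transductions or transfections, and the p-values are too small.

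CRLM1, listed as RP4-710M16.2, had 1482.54, 1582.04 and 1500.31 FPKM (mapped fragments scaled by exon length and library size) in the CRLM1-OE samples, was listed at 0 in the Ctrl samples, and had 78.54, 76.63 and 70.91 FPKM in the Anti samples. Since use of strand is not given, reads of CRLM1 and of an antisense construct cannot be told apart in Anti. Each library held between 33302292 and 44514692 counts, at which a floor of 3 counts equals 0.0674 to 0.0901 CPM (counts scaled to a common library size), for counting error only. Of the epithelial markers EPCAM, CDH1, KRT8, KRT18 and KRT19 were present in every sample and VIL1 was near 0 (1 to 10 counts). The summed level of the 6 was 9455 to 9592 CPM in CRLM1-OE, 10609.8 to 10749.5 in Ctrl and 9222 to 9322 in Anti. The marker sums given here are scaled by total counts alone, without the further factors used in the tests. The order of CRLM1-OE and Anti in this sum depends on that scaling. By the adjusted p, 4 of the 6 epithelial markers were lower with CRLM1 than in Ctrl and 0 higher. Against Anti, 4 were lower and 1, KRT19, was higher. Among all genes averaging 10 counts or more, 30.9% were lower and 26.8% higher against Ctrl, and 33.8% and 30.6% against Anti. KRT18 averaged 426 FPKM with CRLM1 overexpressed, against 785 for Ctrl and 826 for Anti. KRT19, the most abundant of the 6, averaged 3106 FPKM with CRLM1 overexpressed, beside 3235 (Ctrl) and 2305 (Anti). PTPRC, which defines leukocytes, had 0 to 2 counts. The summed level of the 5 leukocyte markers with a row was 4.28 to 4.53 CPM in CRLM1-OE, 3.44 to 3.89 in Ctrl and 2.97 to 3.41 in Anti, and that of the 4 fibroblast markers, nearly all COL1A1, was 15.6 to 19.0, 8.73 to 9.48 and 9.55 to 10.6 CPM. The part of these marker differences, the epithelial ones included, in the results was not tested. In bulk RNA of this kind, a change in the number of responding cells and a change in the RNA per cell cannot be told apart.

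The question put to the data was how the interferon-stimulated genes stood with CRLM1 and with either control. Groups were compared in pairs with edgeR's quasi-likelihood test on the counts, and p-values were adjusted over all genes tested. A gene was called when it differed by 2-fold or more with an adjusted p up to 0.05, the thresholds of the study. The 3 comparisons share samples, so that they are not independent of each other.

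Most of the genes on the list were lowest in CRLM1-OE and highest in Anti. Of the 44 that averaged 10 counts or more over the 9 samples, 32 (72.7%) had their lowest group mean in CRLM1-OE, against 42.0% of the 15930 genes with such counts, and 26 (59.1%) had their highest mean in Anti, against 37.4%. These are descriptions of means, on TMM-scaled CPM, and not all of the differences exceed the spread between replicates. The other 6 genes, OAS2, MX2, SAMD9L, IFI16, IRF9 and XAF1, had at most 10 counts in any sample.

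Against Ctrl, 6 of the 50 genes were called lower in CRLM1-OE, where 0.915% of all 29846 genes tested were called lower, and 0 were called higher, where 2.50% of all genes were. By the adjusted p alone, 26 genes were lower (52.0%) and 9 higher, with 16.8% and 15.0% of all genes. Among genes that averaged 10 counts or more in this comparison, 60.5% of those on the list were lower and 20.9% higher, beside 30.9% and 26.8% of all such genes. The genes called lower were IFIT1, IFIT2, IFIT3, IFITM1, OASL and DTX3L. The median log2 fold change of the 50 was -0.39, and that of all genes tested was 0.017.

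Against Anti, 16 genes were called lower in CRLM1-OE and 0 higher, with 2.56% and 3.09% of all 30183 genes tested. By the adjusted p alone, 29 genes (58.0%) were lower and 8 higher, with 18.5% and 17.1% of all genes. At such counts the shares were 65.9% lower and 18.2% higher on the list, beside 33.8% and 30.6% of all genes. The 16 were IFIT1, IFIT2, IFIT3, IFIT5, OAS1, OASL, RSAD2, CMPK2, BST2, TRIM22, DDX58, IFIH1, DDX60, PARP14, DTX3L and IFI44. The median of the 50 was -0.78 on the log2 scale, beside -0.023 for all genes.

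The 2 controls also differed. In Anti, 6 genes (IFIT1, IFIT2, IFIT3, OASL, CMPK2 and IFI44) were called higher than in Ctrl and 0 lower, with 0.683% and 0.380% of all 29714 genes tested. By the adjusted p alone, 23 genes (46.0%) were higher and 5 lower, with 11.5% and 12.2% of all genes. At an average of 10 counts or more, 52.3% on the list were higher and 11.4% lower, beside 21.0% and 22.7% of all genes. The median was 0.35, beside 0.0047 for all genes, so that a fold change against Anti and one against Ctrl differ in size for many of these genes. Across the 3 comparisons, 17 genes were called at least once.

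**Figure D1:**
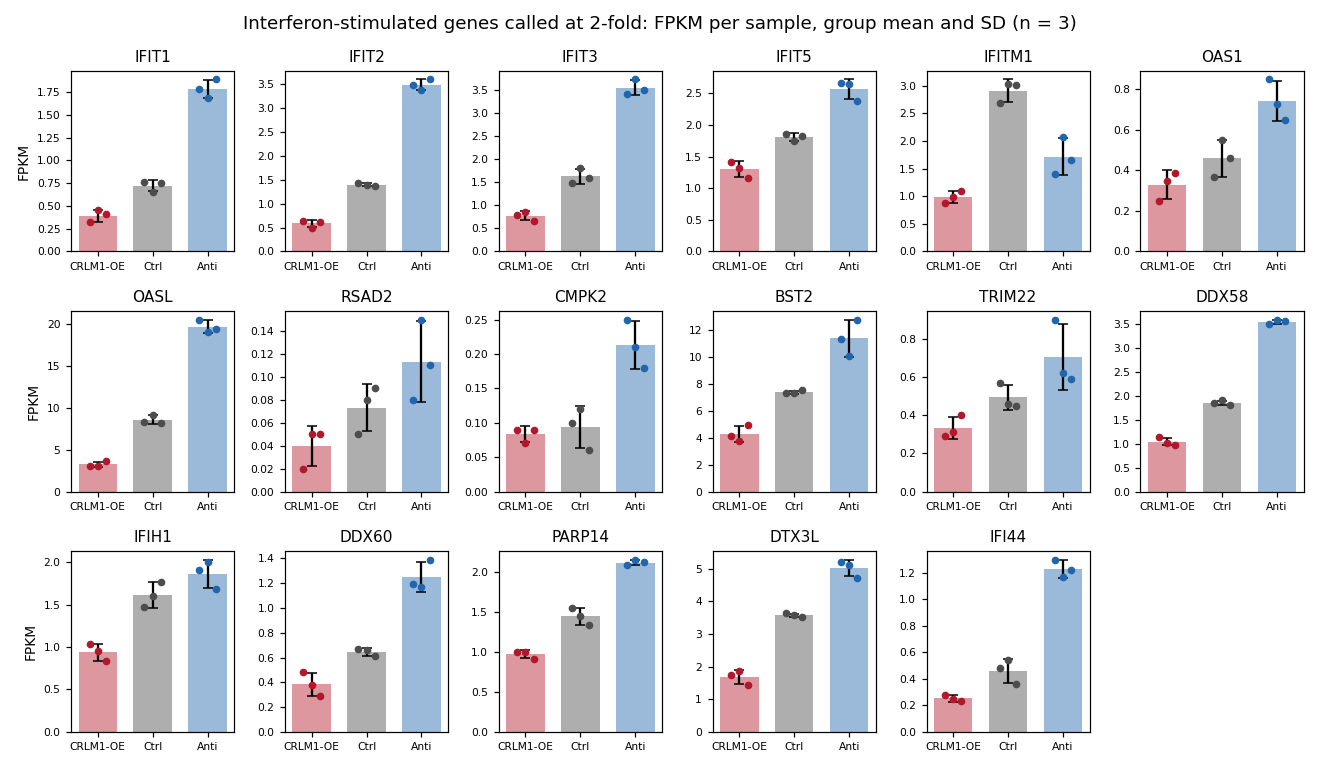
FPKM (vertical axes, from 0, a scale of its own for each gene) of the 17 interferon-stimulated genes called in at least 1 comparison, by group (horizontal axis). Points are the samples, bars the means of 3 and lines the SD. In 16 of the 17 panels the Anti bar is the highest, IFITM1 being highest in Ctrl, and in each panel the CRLM1-OE bar is the lowest.

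The basal levels, which FPKM allows to be set side by side because it is scaled for length, differed widely. In Ctrl, 4 genes had means of at least 100 FPKM (IFITM3, ISG15, LGALS3BP and IFITM2), 5 lay between 10 and 100 (ADAR, PSMB9, IRF1, IFI6 and UBE2L6), 23 between 1 and 10, 10 between 0.1 and 1, and 8 under 0.1. IFITM3, a membrane protein that blocks the entry of enveloped viruses, had 329 ± 10.4 FPKM in Ctrl, and ISG15 285 ± 10.8 (SD, n = 3). These neighbours in the order did not overlap in Ctrl, with the lowest IFITM3 value at 318.24 and the highest ISG15 value at 296.43, whereas the order turned in Anti, with 262 ± 1.93 for IFITM3 and 417 ± 6.96 for ISG15. The large differences were among genes of low and middle level. OASL, at 8.59 ± 0.548 FPKM in Ctrl, was the most abundant of the genes called.

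**Figure D2:**
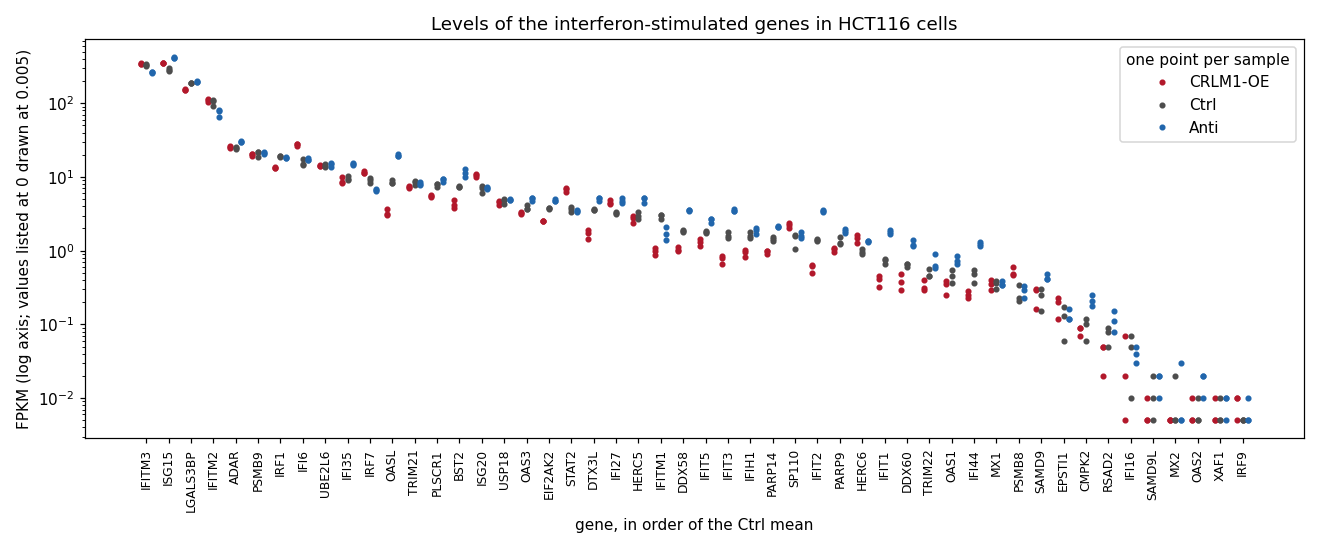
FPKM on a log axis of the 50 interferon-stimulated genes with a row (horizontal axis, in order of the Ctrl mean), 1 point per sample, with values listed at 0 drawn at 0.005. The 4 genes at the left lie at about 100 FPKM or above in Ctrl, and the separation of red (CRLM1-OE) below blue (Anti) is seen mostly among genes between 0.1 and 20 FPKM.

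Promoter sequences from RefSeq (GRCh38.p14, 250 bases before to 50 after the annotated start) were matched for 43 of the 51 genes. IFIT2, IFITM2, OAS2, OASL, MX2, TRIM22, USP18 and IRF7 had no entry. The core of the interferon-stimulated response element was searched on both strands as GAAANNGAAA. It was present in 25 of the 43 promoters (58.1%) and in 3.65% of all 27305 promoters of the same length. By the comparison of CRLM1-OE with Anti, the core was held by 18 of 26 genes with lower levels in CRLM1-OE, 3 of 6 with higher levels and 3 of 10 that did not pass the threshold. Among these 10 are SAMD9L, IFI16, IRF9 and XAF1, which held no core and had at most 10 counts in any sample. They were too low to be placed, so the shares of the 3 sets partly reflect the level of the genes. The letters TTCNNNGAA of the gamma-activated site, which read the same on both strands, were in 11 of the 43 promoters (25.6%) and in 7.88% of all. Matches are a description of letters, and where cores overlapped each was counted.

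Stretches around the cores are shown for 7 of the genes that were lower in CRLM1-OE than in Anti and held the element. Not all such genes held it, and OAS1, RSAD2, CMPK2 and DDX58, called lower than in Anti, had no core in the promoter searched. The core letters are in capitals, and each stretch reads 5′ to 3′ on the strand of the gene and ends before the RefSeq start. A core on the other strand appears as its reverse complement.
IFIT1 (chr10:89392477-89392559, forward strand): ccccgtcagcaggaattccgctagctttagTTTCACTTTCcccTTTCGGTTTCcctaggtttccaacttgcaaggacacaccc
IFIT3 (chr10:89327811-89327914, forward strand): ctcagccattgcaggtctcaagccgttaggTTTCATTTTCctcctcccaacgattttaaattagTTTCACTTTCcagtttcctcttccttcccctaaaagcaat
BST2 (chr19:17405715-17405790, reverse strand): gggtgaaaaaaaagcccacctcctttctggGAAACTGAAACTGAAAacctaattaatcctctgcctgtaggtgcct
ISG15 (chr1:1013354-1013429, forward strand): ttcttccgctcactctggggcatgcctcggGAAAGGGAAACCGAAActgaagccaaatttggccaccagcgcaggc
IFIH1 (chr2:162318685-162318873, reverse strand): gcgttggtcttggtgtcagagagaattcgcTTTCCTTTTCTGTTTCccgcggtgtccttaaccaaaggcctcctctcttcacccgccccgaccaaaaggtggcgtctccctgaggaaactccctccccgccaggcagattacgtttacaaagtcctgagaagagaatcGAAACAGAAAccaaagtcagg
PARP14 (chr3:122680780-122680838, forward strand): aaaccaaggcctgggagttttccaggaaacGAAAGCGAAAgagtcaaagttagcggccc
IFI44 (chr1:78649741-78649788, forward strand): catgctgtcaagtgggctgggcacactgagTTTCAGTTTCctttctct

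Promoters of some genes with higher levels in CRLM1-OE held the same core, 3 of 6 by the comparison with Anti, while those of STAT2, PSMB8 and SP110 did not. IFI6 has 3 and ISG20 has 1, shown here for contrast with the genes above.
IFI6 (chr1:27672246-27672378, reverse strand): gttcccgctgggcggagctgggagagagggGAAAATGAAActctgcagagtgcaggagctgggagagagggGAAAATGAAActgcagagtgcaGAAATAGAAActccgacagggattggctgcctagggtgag
ISG20 (chr15:88638917-88638986, forward strand): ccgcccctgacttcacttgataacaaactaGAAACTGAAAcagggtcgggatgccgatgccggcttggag

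**Figure D3:**
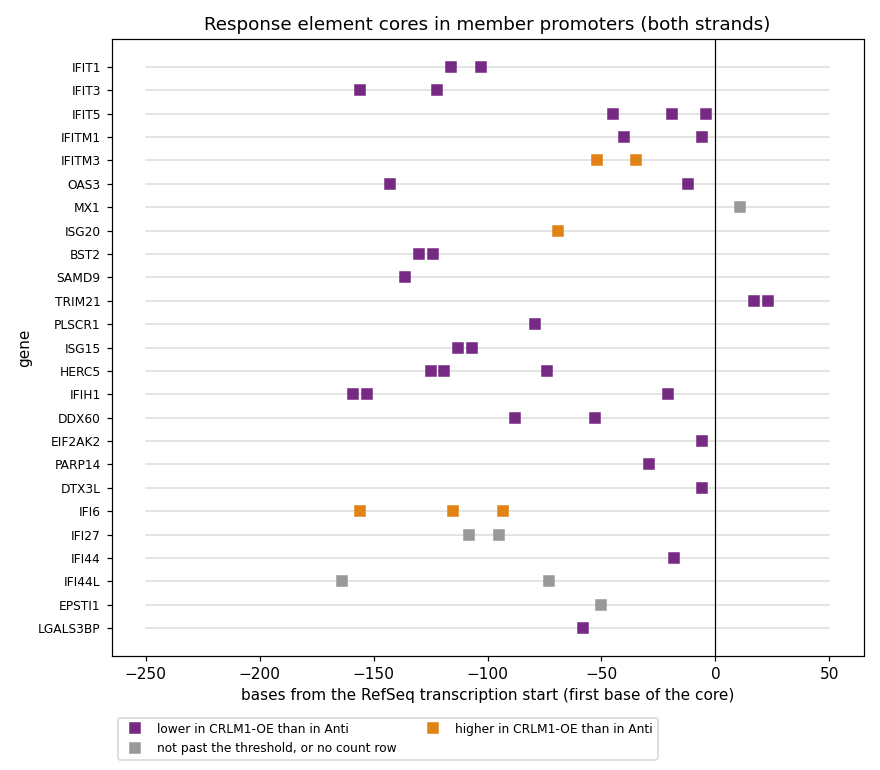
Position of each response element core (squares, both strands) as the distance in bases of its first base from the RefSeq start (horizontal axis, line at 0) in the 25 promoters that hold one, 1 row per gene. Colour gives the comparison of CRLM1-OE with Anti. All cores but those of MX1 and TRIM21 begin before the start, and those of the genes higher in CRLM1-OE (IFITM3, ISG20, IFI6) begin in the same range. A core in each of IFIT5, IFITM1, EIF2AK2 and DTX3L begins 4 or 6 bases before the start and runs across it.

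The IFIT proteins bind viral RNA and hold up its translation. Their genes lie side by side on chromosome 10 (IFIT2 at chr10:89283694-89309271, IFIT3 at chr10:89327307-89377473, IFIT1 at chr10:89392546-89406487 and IFIT5 at chr10:89414568-89421605, GENCODE version 44), and all 4 passed the adjusted p in each comparison. IFIT2 had 0.64, 0.50 and 0.62 FPKM in CRLM1-OE, 1.44, 1.39 and 1.37 in Ctrl, and 3.48, 3.37 and 3.60 in Anti. The groups did not overlap, and Anti was higher by 6.07-fold than CRLM1-OE in the fit (log2 fold change of CRLM1-OE over Anti -2.60 ± 0.11 SE, adjusted p = 6.6e-133). The log2 fold change of IFIT2 was -1.36 against Ctrl (adjusted p = 1.2e-23) and 1.22 for Anti over Ctrl (adjusted p = 3.1e-41).

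IFIT1, which binds viral RNA with an incomplete cap, had 0.32, 0.45 and 0.41 FPKM in CRLM1-OE, 0.76, 0.65 and 0.75 in Ctrl, and 1.78, 1.69 and 1.89 in Anti. Its log2 fold change was -2.25 ± 0.12 SE against Anti (adjusted p = 4.6e-79), -1.02 ± 0.15 SE against Ctrl (adjusted p = 4.6e-11) and 1.21 for Anti over Ctrl (adjusted p = 1.2e-29). The 3 groups were apart in every sample, while the size against Ctrl stood at the 2-fold limit. It was -0.87 without CRLM1-OE replicate 1, -0.97 without Ctrl replicate 1 and -0.97 without Ctrl replicate 3, and -0.87 under total counts, and the adjusted p stayed at 4.7e-07 or below in these fits.

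IFIT3 had 0.80, 0.85 and 0.66 FPKM in CRLM1-OE, 1.48, 1.81 and 1.59 in Ctrl, and 3.42, 3.73 and 3.50 in Anti, again without overlap. Its log2 fold change was -1.19 against Ctrl (adjusted p = 2.2e-17), -2.26 against Anti (adjusted p = 8.3e-89) and 1.04 for Anti over Ctrl (adjusted p = 1.2e-25), the last of which was 0.97 without Ctrl replicate 1. IFIT5 moved less, with 1.42, 1.32 and 1.17 FPKM in CRLM1-OE, 1.86, 1.74 and 1.82 in Ctrl, and 2.66, 2.65 and 2.38 in Anti. It was called against Anti only (-1.02 ± 0.090 SE, adjusted p = 1.1e-28), at the limit of 2-fold, and was -0.94 without CRLM1-OE replicate 3 and -0.99 without Anti replicate 2. Against Ctrl its log2 fold change was -0.59 (adjusted p = 1.1e-08).

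The OAS enzymes make a short adenylate on sensing double-stranded RNA, except for OASL, which lacks this activity and enhances RNA sensing by DDX58. OASL (chr12:121017763-121039246) was among the genes with the largest difference on the list, with 3.04, 3.11 and 3.62 FPKM in CRLM1-OE, 8.37, 9.21 and 8.18 in Ctrl, and 20.56, 19.12 and 19.42 in Anti. Each group was apart from the others by several times its own spread. Its log2 fold change was -1.51 ± 0.060 SE against Ctrl (adjusted p = 3.5e-137), -2.64 ± 0.048 SE against Anti (adjusted p = 1e-300, the smallest written) and 1.11 for Anti over Ctrl (adjusted p = 1.2e-161).

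OAS1 lies with OAS3 and OAS2 in a cluster elsewhere on chromosome 12 and had 0.25, 0.35 and 0.39 FPKM in CRLM1-OE, 0.37, 0.55 and 0.46 in Ctrl, and 0.85, 0.73 and 0.65 in Anti. In FPKM the lowest Ctrl value lay below the highest CRLM1-OE value, and Anti was apart from both. It was called against Anti (-1.24, adjusted p = 5.3e-14). Against Ctrl the value of -0.59 had an adjusted p of 0.0054, which was 0.12 without CRLM1-OE replicate 1 and 0.11 without Ctrl replicate 2 (-0.40 and -0.43). OAS3 followed at a higher level, with means of 3.26, 3.83 and 5.03 FPKM in CRLM1-OE, Ctrl and Anti, and log2 fold changes of -0.35 against Ctrl and -0.67 against Anti (adjusted p = 8.7e-12 and 6.4e-49). OAS2, with 0 to 5 counts, was too low to be placed, though it passed against Anti without CRLM1-OE replicate 2 (adjusted p = 0.016).

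Among the other antiviral effectors, BST2 (tetherin), which holds budding virions at the cell surface, had 4.12, 3.80 and 4.94 FPKM in CRLM1-OE, 7.33, 7.36 and 7.53 in Ctrl, and 11.33, 10.08 and 12.81 in Anti. The groups did not overlap, with -0.90 against Ctrl (adjusted p = 3.3e-18) and -1.45 against Anti (adjusted p = 1.1e-55) on the log2 scale. TRIM22, a ubiquitin ligase that restricts several viruses, had 0.29, 0.31 and 0.40 FPKM in CRLM1-OE, 0.57, 0.46 and 0.45 in Ctrl, and 0.90, 0.62 and 0.59 in Anti. It was called against Anti (-1.14, adjusted p = 1.2e-08), and stood at -0.92 without Anti replicate 1, which was the highest sample. Ctrl lay between them, lower than Anti by a log2 value of 0.42 that did not pass the threshold (adjusted p = 0.059) but did without Ctrl replicate 1, Anti replicate 2 or Anti replicate 3 (adjusted p = 0.025, 0.033 and 0.020).

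RSAD2 (viperin) and CMPK2, neighbours on chromosome 2 whose products make and feed a chain-terminating nucleotide, were counted few times. RSAD2 had 3, 7 and 7 counts in CRLM1-OE, 9, 11 and 12 in Ctrl, and 13, 22 and 15 in Anti. CMPK2 had 16, 10 and 15 counts in CRLM1-OE, 20, 19 and 10 in Ctrl, and 44, 35 and 28 in Anti. Both were called lower than in Anti (RSAD2 -1.59 ± 0.46 SE, adjusted p = 0.0019; CMPK2 -1.44 ± 0.31 SE, adjusted p = 1.2e-05). CMPK2 in Anti was also called against Ctrl (1.05, adjusted p = 0.0019), but was 0.87 without Ctrl replicate 3 and 0.93 without Anti replicate 1.

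Of the effectors not called, PLSCR1 was lower in CRLM1-OE than in both controls (-0.60 against Ctrl and -0.76 against Anti, adjusted p = 3.1e-19 and 1.7e-32), as was TRIM21, the cytosolic antibody receptor (-0.31 and -0.21). SAMD9 differed from Anti (-0.83, adjusted p = 2.3e-07), with -0.037 against Ctrl (adjusted p = 0.91). ISG20, an exonuclease of single-stranded RNA, was the one effector that was higher in CRLM1-OE, with 10.50, 11.06 and 10.10 FPKM, than in Ctrl, with 7.55, 6.02 and 7.18, and in Anti, with 7.22, 7.09 and 6.88. MX1 did not pass the threshold in any comparison, with 0.347 ± 0.0551 FPKM in CRLM1-OE, 0.350 ± 0.0458 in Ctrl, and Anti samples 0.357 ± 0.0289 (SD, n = 3). MX2 and SAMD9L had at most 6 counts. SAMD9L passed without CRLM1-OE replicate 1, which held all 5 CRLM1-OE counts (adjusted p = 0.032 against Ctrl and 0.0063 against Anti).

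Of 6 genes grouped as sensors of foreign nucleic acid, 5 were lower in CRLM1-OE by the adjusted p against Ctrl and 5 against Anti, where 30.9% and 33.8% of all genes with 10 counts or more were. Among the 5 is ADAR, which edits RNA and is not itself a sensor. For ADAR the result against Ctrl held in 4 of 14 alternatives. The sixth, IFI16, had at most 10 counts. DDX58 (RIG-I, RIGI in current annotation), the sensor of RNA with a 5′ triphosphate, had 1.13, 1.02 and 0.98 FPKM in CRLM1-OE, 1.84, 1.90 and 1.80 in Ctrl, and 3.49, 3.57 and 3.56 in Anti. The values within each group were close, and the groups were far apart. Its log2 fold change was -0.93 against Ctrl (adjusted p = 2.2e-20), -1.80 against Anti (adjusted p = 3.3e-102) and 0.85 for Anti over Ctrl (adjusted p = 6.5e-28).

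DDX60, a helicase that assists DDX58, had 0.48, 0.38 and 0.29 FPKM in CRLM1-OE, 0.67, 0.66 and 0.61 in Ctrl, and 1.19, 1.17 and 1.39 in Anti, with -0.85 against Ctrl (adjusted p = 1.4e-09) and -1.73 against Anti (adjusted p = 5.2e-51). IFIH1 (MDA5), which senses long double-stranded RNA, had 1.03, 0.95 and 0.83 FPKM in CRLM1-OE, 1.47, 1.60 and 1.77 in Ctrl, and 1.91, 2.00 and 1.68 in Anti. Here the controls overlapped, so that the difference was one of CRLM1-OE from both, with -0.89 against Ctrl (adjusted p = 1.7e-16) and -1.04 against Anti (adjusted p = 8.2e-24). The call against Anti was at the limit, with -0.95 without CRLM1-OE replicate 3 and -0.98 without Anti replicate 2.

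EIF2AK2 (PKR), the kinase that stops translation on double-stranded RNA, had means of 2.52, 3.75 and 4.76 FPKM in CRLM1-OE, Ctrl and Anti and SDs of at most 0.191. Its log2 fold changes of -0.69 against Ctrl and -0.96 against Anti (adjusted p = 7.7e-49 and 1.3e-109) were large beside this spread but under 2-fold. ADAR, which edits adenosine in double-stranded RNA, was lower in CRLM1-OE than in Anti (-0.28, adjusted p = 3.1e-33). Against Ctrl its value of -0.070 (adjusted p = 0.026) lay within the range that scaling moves, turned to 0.071 under total counts, and had adjusted p-values of 0.068, 0.16, 0.31 and 0.15 without CRLM1-OE replicate 2, CRLM1-OE replicate 3, Ctrl replicate 1 and Ctrl replicate 2.

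**Figure D4:**
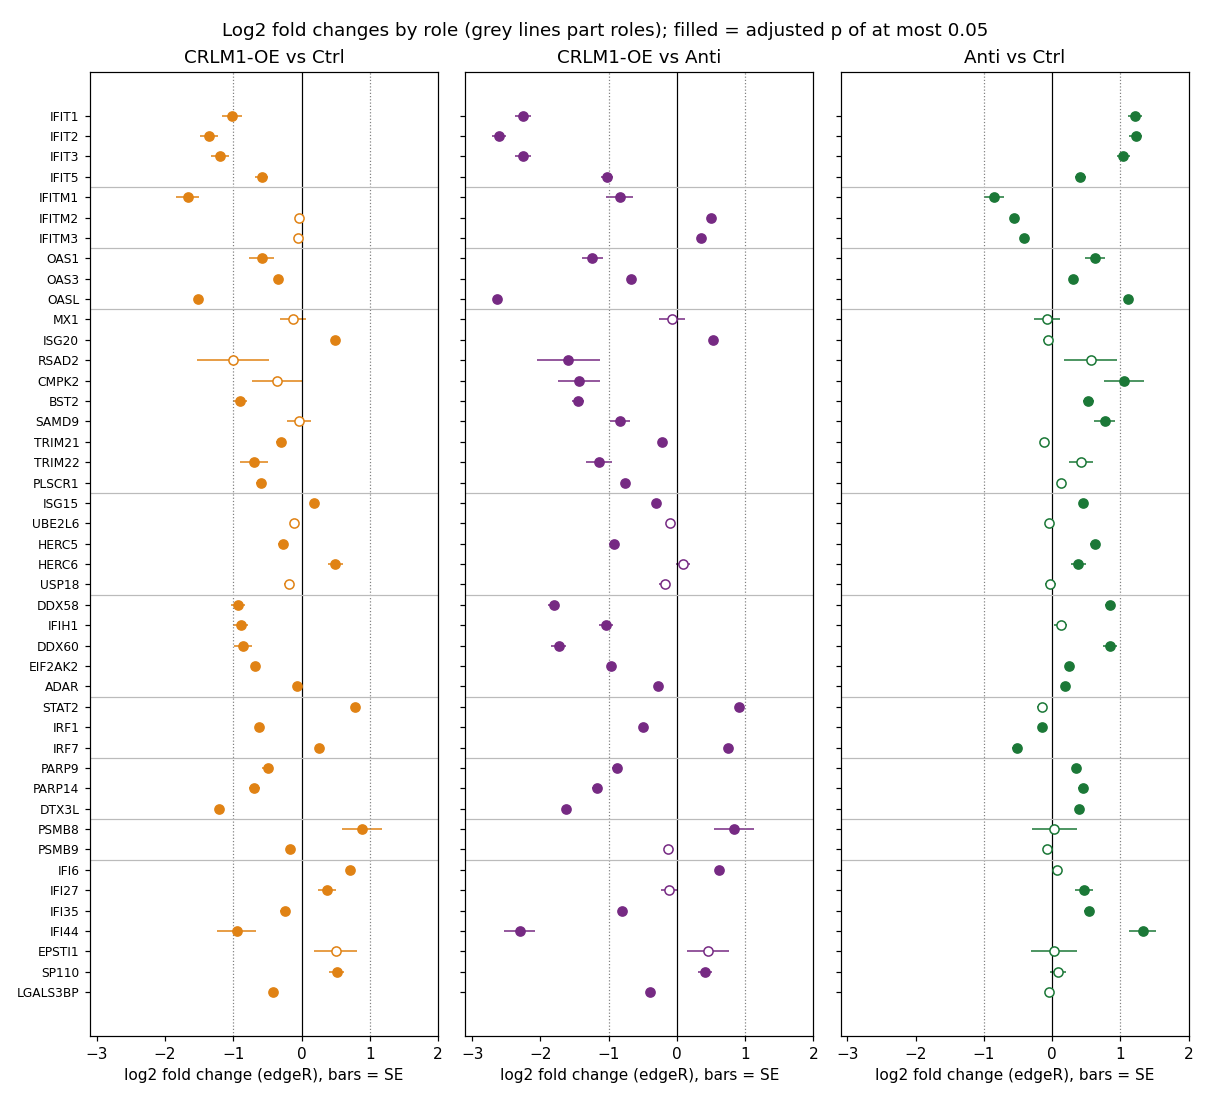
Log2 fold changes (horizontal axes) with their SE from edgeR for the 44 interferon-stimulated genes that averaged 10 counts or more, in the 3 comparisons, grouped by role between grey lines. Filled points have an adjusted p of at most 0.05 and dotted lines mark 2-fold; the IFIT genes, OASL, DDX58, DDX60, DTX3L and IFI44 lie left in the first 2 panels and right in the third, and STAT2, IRF7, ISG20 and IFI6 lie right in the first 2.

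PARP9 and DTX3L form a pair of an ADP-ribosyltransferase and a ubiquitin ligase, and their genes start head to head on chromosome 3 (chr3:122527924-122564577 and chr3:122564338-122575203), with PARP14 close by. DTX3L had 1.73, 1.88 and 1.45 FPKM in CRLM1-OE, 3.63, 3.57 and 3.53 in Ctrl, and 5.21, 5.13 and 4.73 in Anti. The difference was called against both (-1.20 ± 0.065 SE against Ctrl, adjusted p = 1.3e-73; -1.63 ± 0.060 SE against Anti, adjusted p = 1.2e-159). PARP9 moved less, with means of 1.04, 1.35 and 1.84 FPKM and log2 fold changes of -0.50 and -0.88 (adjusted p = 4.7e-09 and 5.6e-31). PARP14 had 1.00, 1.00 and 0.91 FPKM in CRLM1-OE, 1.55, 1.45 and 1.34 in Ctrl, and 2.08, 2.15 and 2.12 in Anti, and was called against Anti (-1.17, adjusted p = 1.8e-56).

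The genes of the ISG15 system moved in both directions or did not pass the threshold. ISG15, the modifier itself, had 351.34, 348.70 and 347.10 FPKM in CRLM1-OE, 274.99, 284.30 and 296.43 in Ctrl, and 416.06, 409.87 and 423.77 in Anti. CRLM1-OE thus stood between the controls, above Ctrl by 0.18 (adjusted p = 3.0e-13) and below Anti by a log2 fold change of -0.30 (adjusted p = 1.4e-50). HERC5, the ligase that attaches ISG15, was lower than in Anti (-0.92, adjusted p = 2.6e-40). Against Ctrl, HERC5 had -0.27 (adjusted p = 0.0016) with overlapping samples, and it did not pass in 5 of 14 alternatives. HERC6 was higher than in Ctrl (0.49, adjusted p = 4.0e-05) and did not pass against Anti (0.088, adjusted p = 0.54). The conjugating enzyme UBE2L6 and the ISG15 protease USP18, which also damps the receptor, passed the threshold in no comparison, with log2 fold changes between -0.19 and -0.028. USP18 passed against Ctrl without CRLM1-OE replicate 3 (-0.23, adjusted p = 0.034) or Ctrl replicate 3 (-0.23, adjusted p = 0.031) and against Anti without CRLM1-OE replicate 3 (-0.21, adjusted p = 0.042), and UBE2L6 against Anti without Anti replicate 3 (-0.15, adjusted p = 0.024).

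The transcription factors on the list moved in both directions. STAT2, part of the complex that binds the response element, had 7.06, 6.93 and 6.26 FPKM in CRLM1-OE, 3.62, 3.36 and 3.89 in Ctrl, and 3.44, 3.35 and 3.60 in Anti. All CRLM1-OE samples lay above all controls, by 0.78 ± 0.062 SE against Ctrl (adjusted p = 1.0e-35) and 0.92 against Anti (adjusted p = 4.2e-48), while the controls overlapped (-0.15, adjusted p = 0.12). IRF7, which drives interferon genes, had its highest level in CRLM1-OE (11.6 ± 0.267 FPKM), a lower one in Ctrl (8.99 ± 0.629) and the lowest in Anti (6.66 ± 0.270, SD, n = 3), with 0.26 against Ctrl and 0.75 against Anti. IRF1, an activator downstream of interferon gamma, was lower in CRLM1-OE (13.4 ± 0.180 FPKM) than in Ctrl (19.0 ± 0.355) and in Anti (18.2 ± 0.344), with -0.62 and -0.50 (adjusted p = 1.2e-66 and 5.1e-46).

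IRF9, the DNA-binding part of that complex, had 0 or 1 count per sample. Its exons overlap those of another gene on the same strand, ENSG00000259529, over 23.9% of their bases in GENCODE version 44, and that gene held 404 to 713 counts. How shared reads were assigned is not given in the sources used here, so the level of IRF9 is uncertain. The overlapping gene was looked up after the values of IRF9 were seen. Exons are also shared with a gene of the opposite strand by IRF1 and IRF1-AS1 (22.9% of the IRF1 exon bases), PSMB8 and PSMB8-AS1 (17.3%), CMPK2 and RSAD2 (8% of CMPK2), and PARP9 and DTX3L (1.56% of PARP9), so that reads from these stretches cannot be told apart without use of strand.

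The IFITM genes, at one end of chromosome 11, are close copies of each other, so that reads may be split between them and their values are uncertain. IFITM1 was the only one called, with 0.88, 0.99 and 1.10 FPKM in CRLM1-OE, 2.68, 3.04 and 3.02 in Ctrl, and 1.41, 2.08 and 1.66 in Anti. It was highest in Ctrl, with -1.67 ± 0.17 SE for CRLM1-OE over Ctrl (adjusted p = 2.0e-21) and -0.85 for Anti over Ctrl (adjusted p = 1.7e-07). IFITM2 and IFITM3 were lowest in Anti, with 0.50 and 0.35 for CRLM1-OE over Anti (adjusted p = 1.9e-68 and 2.5e-67). Against Ctrl they gave -0.034 (adjusted p = 0.44, or 0.017 without Ctrl replicate 2) and -0.050 (adjusted p = 0.071, or 0.0051 without Ctrl replicate 1), values that turned to 0.11 and 0.092 under total counts.

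Of the other interferon-induced genes, IFI44 had 23, 16 and 17 counts in CRLM1-OE, 40, 37 and 24 in Ctrl, and 100, 84 and 82 in Anti. It was called against Anti (-2.30 ± 0.23 SE, adjusted p = 3.2e-23) and between the controls (1.33, adjusted p = 4.9e-10). Against Ctrl it had -0.95 (adjusted p = 0.0043), which passed 2-fold without CRLM1-OE replicate 1 (-1.04) and without Ctrl replicate 3 (-1.07). IFI35 was lower than in Anti (-0.80, adjusted p = 2.2e-33). Against Ctrl, IFI35 had -0.24 (adjusted p = 0.0035) with overlapping samples, and it did not pass in 5 of 14 alternatives. LGALS3BP, a secreted glycoprotein, had 153 ± 1.77 FPKM in CRLM1-OE, 189 ± 1.68 in Ctrl, and Anti samples 195 ± 2.83 (SD, n = 3), with -0.42 and -0.40.

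A smaller set was higher in CRLM1-OE. IFI6, a mitochondrial and endoplasmic reticulum protein that protects from cell death, had 27.68, 27.63 and 26.72 FPKM in CRLM1-OE, 14.81, 14.47 and 17.36 in Ctrl, and 16.89, 17.93 and 17.12 in Anti. All 3 CRLM1-OE samples lay above the controls, by 0.70 and 0.61 (adjusted p = 1.6e-30 and 4.4e-25). SP110, a nuclear body protein, rose by 0.51 and 0.41 (adjusted p = 6.7e-06 and 2.7e-04). PSMB8, a catalytic subunit of the immunoproteasome with 13 to 45 counts, gave 0.89 against Ctrl and 0.84 against Anti (adjusted p = 0.0093 and 0.012), but 0.056 and 0.060 with DESeq2's Wald test. Against Ctrl its adjusted p was 0.065 without CRLM1-OE replicate 1 (0.76) and 0.054 without Ctrl replicate 2 (0.77), and against Anti it was 0.083 without CRLM1-OE replicate 1 (0.70) and 0.066 without Anti replicate 3 (0.71). IFI27 was higher than in Ctrl in CRLM1-OE (0.37, adjusted p = 0.016, or 0.10 without CRLM1-OE replicate 1, where the value was 0.31) and in Anti (0.46, adjusted p = 0.0022). PSMB9, EPSTI1 and XAF1 did not pass against Anti, and PSMB9 alone of them passed against Ctrl (-0.17, adjusted p = 0.010, and 0.074, 0.14 and 0.12 without CRLM1-OE replicate 2, Ctrl replicate 1 and Ctrl replicate 2, with -0.15, -0.13 and -0.14).

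The chain that leads to these genes begins with the interferons. Of 22 interferon genes, 6 had a row in the count table and all were near 0, with IFNB1, the interferon beta gene, at 0 or 1 count per sample. IFNL1, an interferon lambda gene, had 0, 0 and 0 counts in CRLM1-OE, 2, 4 and 0 in Ctrl, and 15, 6 and 7 in Anti. The mean of Anti, 0.244 CPM, was at least 2.71-fold higher than the highest floor of a CRLM1-OE library, 3 counts, a ratio without a test. In the edgeR test on the counts, IFNL1 was higher in Anti than in CRLM1-OE (adjusted p = 1.6e-06) and than in Ctrl (adjusted p = 0.014). None of the 6 passed the threshold for CRLM1-OE against Ctrl, and IFNL1 alone passed it in the other comparisons.

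The 6 receptor chains changed in both directions, 3 higher and 3 lower in CRLM1-OE against either control by the adjusted p. Of all genes averaging 10 counts or more, 26.8% were higher and 30.9% lower than in Ctrl, and 30.6% and 33.8% than in Anti. Lower were IFNAR1, a chain of the type I receptor (-0.62 against Ctrl and -0.77 against Anti), IFNGR2 of the gamma receptor (-0.86 and -1.09, the latter called) and IFNGR1 (-0.19 and -0.36). Higher were both chains of the lambda receptor (IL10RB also serves other cytokines), IFNLR1 (0.68 and 0.81) and IL10RB (0.24 and 0.58), and IFNAR2 (0.20 and 0.17). IFNLR1 had 6.45, 6.62 and 6.56 FPKM in CRLM1-OE, 3.95, 3.87 and 3.49 in Ctrl, and 3.63, 3.47 and 3.72 in Anti. IFNGR2 had 16.50, 16.75 and 15.98 FPKM in CRLM1-OE, 28.56, 28.01 and 25.78 in Ctrl, and 33.38, 34.94 and 33.41 in Anti.

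Among the kinases, TYK2, a kinase of the type I and lambda receptors, was higher (0.68 and 0.73, adjusted p = 1.6e-36 and 9.1e-43), JAK1 lower by little (-0.19 and -0.20), and JAK2 passed in no comparison. STAT3 was higher than in Anti (0.25) and gave 0.013 against Ctrl (adjusted p = 0.77).

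**Figure D5:**
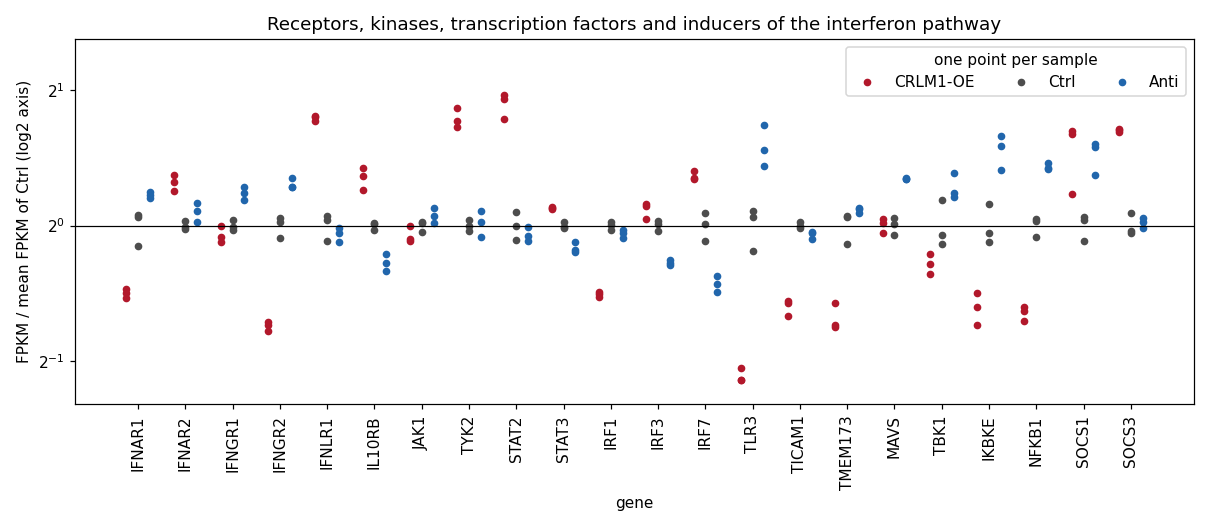
FPKM of 22 genes of the interferon pathway in each sample, divided by the mean of the 3 Ctrl samples (vertical log2 axis, line at 1), in the order receptors, kinases, STAT and IRF factors, inducers and inhibitors (horizontal axis). CRLM1-OE points lie below 1 for IFNAR1, IFNGR2, IRF1, TLR3, TICAM1, TMEM173, IKBKE and NFKB1 and above 1 for IFNLR1, TYK2, STAT2, IRF7 and SOCS3.

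Of 12 genes that connect nucleic acid sensing to interferon induction, 8 were lower and 2 higher in CRLM1-OE than in Ctrl by the adjusted p, and 8 were lower and 1 higher than in Anti. Of all genes averaging 10 counts or more, 30.9% were lower and 26.8% higher than in Ctrl, and 33.8% and 30.6% than in Anti. TLR3, the endosomal sensor of double-stranded RNA, had 0.16, 0.16 and 0.17 FPKM in CRLM1-OE, 0.31, 0.38 and 0.37 in Ctrl, and 0.59, 0.48 and 0.52 in Anti, and was called against both (-1.22 and -1.74, adjusted p = 6.7e-10 and 1.1e-24). Its adaptor TICAM1 had -0.72 and -0.58, and TMEM173 (STING), the adaptor of DNA sensing, -0.80 and -0.84. The kinase IKBKE (-0.73 and -1.21) and NFKB1 (-0.76 and -1.13) were called against Anti. TBK1 was lower against both (-0.40 and -0.61), and MAVS, the adaptor of DDX58 and IFIH1, was lower than in Anti (-0.39). Against Ctrl the value of MAVS was -0.11 (adjusted p = 2.5e-04), with overlapping samples and a size below the 0.141 by which total counts moved the median of all genes. RELA passed against Ctrl (-0.19). IRF3 was higher than in Anti (0.35), DHX58 higher than in Ctrl (0.53), and TRIM25, which activates DDX58, was higher than in Ctrl (0.26) and lower than in Anti (-0.12).

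Of 6 negative regulators, SOCS3, an inhibitor of JAK kinases, was higher in CRLM1-OE (13.9 ± 0.101 FPKM) than in Ctrl (8.53 ± 0.487) and Anti (8.66 ± 0.225, SD, n = 3), by 0.59 and 0.63 (adjusted p = 2.2e-34 and 1.7e-41). SOCS1 was higher than in Ctrl (0.43, adjusted p = 0.017). IRF2, PIAS1 and PTPN2 were lower than in Ctrl (-0.23, -0.44 and -0.22), and none of the 6 but SOCS3 passed against Anti.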

How the data were processed

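RNA of 9 HCT116 samples, grouped by their labels, was sequenced by the authors as 151 nt read pairs from polyA RNA. As the methods state, the authors trimmed with the FASTX-Toolkit, dropped reads shorter than 16 nt, used TopHat2 with up to 4 mismatches on GRCh38 and Gencode version 23, and kept unique alignments. The authors deposited raw counts and, apart from these, FPKM values to 2 decimals. Use of strand and the counting of read pairs are not given in the sources used here. FPKM is scaled on all mapped fragments, and on that scale, as log2(FPKM + 0.1), the median of all genes was 0.092 higher in CRLM1-OE than in Ctrl.

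Counts were tested with edgeR 4.0.16 (TMM, glmQLFit, glmQLFTest, R 4.3.3) on the 6 samples of each pair, over genes with a summed count of 1 or more. SE is the log2 fold change over the root of F. The tests were tried on simulated data. An exact permutation test of 3 against 3 samples cannot go below p = 0.1. Alternatives were RLE factors, total counts, filterByExpr, DESeq2 1.42.0, limma 3.58.1 on log2(FPKM + 0.1) and log2(FPKM + 1), a fit of 9 samples, a replicate block, and each sample left out. Figures used matplotlib 3.10.9.

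The genes and the pathway lists were chosen with earlier results of these data known. The text names every gene of the list, with samples' values for those called at 2-fold, and pathway genes that passed the adjusted p. Some genes are not reported here.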

Additional observations from a re-analysis of the deposited data

How the results depend on the processing

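Of the single genes' log2 fold changes in the 3 comparisons, 119 of 150 kept their direction and their side of the adjusted p under all alternatives that gave a value. Under total counts without factors, which moved the median of all genes by 0.141 (CRLM1-OE against Ctrl) and 0.105 (Anti against Ctrl), IFITM3 (0.092), IFITM2 (0.11) and ADAR (0.071) turned to higher in CRLM1-OE than in Ctrl and LGALS3BP (0.065) to higher in Anti than in Ctrl, all below these shifts, 1 gene (PSMB8, 1.03) was called higher against Ctrl, and the medians were -0.25, -0.72 and 0.45 for CRLM1-OE against Ctrl, CRLM1-OE against Anti and Anti against Ctrl. The split by adjusted p against Ctrl became 12 higher and 22 lower. With limma on log2(FPKM + 0.1) the medians were -0.14, -0.40 and 0.25 and 10 genes were called lower against Anti, and with log2(FPKM + 1) they were -0.054, -0.21 and 0.15, with 1, 7 and 1 genes called lower against Ctrl, lower against Anti and higher in Anti than in Ctrl, since the pseudocount shrinks genes of low level. ADAR against Ctrl was 0.045 and 0.043 there. The median against Ctrl was -0.33 with filterByExpr, which tests fewer genes, and -0.41 in a fit of 9 samples.

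With each sample left out in turn, the medians ranged from -0.41 to -0.28, from -0.83 to -0.70 and from 0.29 to 0.37. Genes called higher against Ctrl ranged from 0 to 1 (PSMB8 without Ctrl replicate 3, 1.14) and genes called lower in Anti than in Ctrl from 0 to 1 (IFITM1 without Anti replicate 2, -1.02). Called lower were 5 to 8 genes against Ctrl and 14 to 17 against Anti, and higher in Anti than in Ctrl 5 to 6.

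Equal replicate numbers did not pair the samples: the deviations of same-numbered samples from their group means correlated between -0.033 and 0.078 across 12941 genes. In fits with a replicate block the median of Anti against Ctrl was 0.38, and by adjusted p the split against Ctrl was 9 higher and 28 lower. Genes under about 10 counts, among them OAS2, MX2, SAMD9L, IFI16, IRF9 and XAF1, could not be placed at this depth.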

Other observations

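Genes of the interferon response outside the list were also measured. Of 23 further interferon-stimulated genes, 9 were lower and 5 higher in CRLM1-OE than in Ctrl by the adjusted p, and 11 were lower and 5 higher than in Anti. These are 39.1% and 21.7% of the 23 against Ctrl, beside 16.8% and 15.0% of all genes tested. Against Anti they are 47.8% and 21.7%, beside 18.5% and 17.1%. Of all genes averaging 10 counts or more, 30.9% were lower and 26.8% higher than in Ctrl, and 33.8% and 30.6% than in Anti. That filter was not applied to the 23, of which RTP4, CASP1 and ZBP1 had at most 4 counts in any sample. APOL6, of the apolipoprotein L cluster on chromosome 22, had 0.42, 0.40 and 0.35 FPKM in CRLM1-OE, 0.99, 0.89 and 0.85 in Ctrl, and 1.46, 1.39 and 1.37 in Anti, a log2 fold change of -1.34 against Ctrl and -1.90 against Anti (adjusted p = 2.2e-41 and 3.3e-101). APOL1 gave -1.30 and -2.28. ZC3HAV1, the zinc-finger antiviral protein that binds CpG-rich RNA, had 3.62 ± 0.211 FPKM in CRLM1-OE, 5.34 ± 0.0961 in Ctrl, and Anti samples 9.70 ± 0.243 (SD, n = 3), with -0.68 and -1.47. Those higher in CRLM1-OE than in both controls included the helicase HELZ2 (0.86 and 0.66), RNF213 (0.47 and 0.15) and SP100 (0.25 and 0.36).

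Of 13 genes that respond mainly to interferon gamma, 11 had a count in the comparison with Anti, and 2 of them (18.2%) were lower in CRLM1-OE by the adjusted p, a share like the 18.5% of all genes tested. WARS, a tryptophanyl-tRNA synthetase, had 17.59, 17.75 and 17.29 FPKM in CRLM1-OE, 30.34, 30.01 and 29.22 in Ctrl, and 47.17, 46.86 and 46.81 in Anti, with -0.88 against Ctrl and -1.47 against Anti. GBP1, with 5 to 29 counts, gave -1.35 against Anti (adjusted p = 0.0029). CIITA and NLRC5, activators of MHC genes, were higher in CRLM1-OE than in Ctrl (0.75 and 0.41, adjusted p = 0.0081 and 0.0075), as was GBP3 (0.79, adjusted p = 0.027). GBP3 was low and its samples overlapped, with 35, 37 and 24 counts in CRLM1-OE and 27, 19 and 6 in Ctrl. CIITA, NLRC5 and GBP3 were 33.3% of the 9 tested against Ctrl, beside 15.0% of all genes tested, and 0 were higher than in Anti. Mean CPM in CRLM1-OE, Ctrl and Anti was 1.22, 0.723 and 1.11 for CIITA and 4.11, 3.08 and 4.36 for NLRC5. The chemokine CXCL10 had at most 3 counts.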
